A study of Mus musculus with 36 samples.

Results

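Sult2a and Sult3a are 2 groups of cytosolic sulfotransferase genes, and the repressive histone mark H3K9me3 (trimethylation of lysine 9 of histone H3) around them was followed in the livers of young mice. The members were chosen by symbol, as every bin of the deposited comparison tables that the authors' annotation assigned to a gene named Sult2a or Sult3a with a number. A bin is a stretch of at most 501 bases of a region in which H3K9me3 was called enriched, so the measured value that selected the members was the presence of a called H3K9me3 region near the gene, and the group was proposed with earlier results of these data known. In all, 10 of the 22325 gene symbols in the 6 tables were members, 8 on chromosome 7 (Sult2a1 to Sult2a8) and 2 on chromosome 10 (Sult3a1 and Sult3a2). They held 146 of the 414426 distinct bins. Chromatin came from frozen whole liver, so a change in a cell type's share and a change within its cells cannot be told apart. The animals were littermates of a Reg3g fl/fl colony on the C57BL/6J background that served as controls (fl/fl or fl/+), born to dams fed a chow diet (control) or a Western-style diet from before mating through lactation (maternal obesity, MO). Offspring were taken at 3 weeks or at 8 weeks, after a period in which all were on chow. The 8 groups were control females (CF), MO females (MF), control males (CM) and MO males (MM) at each age, with 4 H3K9me3 libraries per group. The deposited tables compared 8 with 3 weeks in controls of each sex and MO with control in each sex at each age, and held for each bin an average log2 CPM (reads of a bin scaled to library size), a log2 change, a p-value and an FDR, but no value per library. The depth and spread of single libraries could therefore not be examined, and errors of changes are approximate standard errors (SE) computed from the deposited change and p-value.

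Sulfotransferases move a sulfonate group from the donor PAPS onto small molecules, which makes them more soluble and usually inactive. The SULT2A enzymes act on hydroxysteroids such as dehydroepiandrosterone and on bile acids, and SULT3A1 is known to act on amines. In adult mouse liver, transcripts of Sult3a1 and of several Sult2a genes are well known to be more abundant in females than in males, a difference set up around puberty through the pattern of growth hormone release. H3K9me3 marks compacted, silent chromatin, and it lies over repeated sequence and over some clusters of tissue-specific genes.

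The marked bins lay mostly outside the body of the gene they were assigned to, and in repeats. Of the 44 chromosome 7 bins in the male age table, 19 fell within the body of the gene they were assigned to and 3 were annotated to a promoter. On chromosome 10 it was 1 of 14 and none. The median share of a bin in soft-masked bases (repeats in the RefSeq GRCm38 sequence) was 79.8% on chromosome 7 and 61.8% on chromosome 10, against 12.3% over all bins of that table. All 6 chromosome 7 bins and the 1 chromosome 10 bin annotated as exonic in males lay in exons of other annotated genes (Zbed4-ps2, Zbed4-ps3, Kat6b-ps2, Rpap3-ps1, Phf20-ps and Gm10327), not in exons of a sulfotransferase. Distances to a start site are those of the authors' annotation. No deposited bin of the age tables was assigned to Sult2a5. Merging the member bins that overlap across tables left 74 places, and 35 of them fell into 12 sets of near copies (at least 85% identity over at least 150 aligned bases, limits chosen after seeing the data). The largest set held 7 places beside 5 genes of both chromosomes, Sult3a1, Sult2a2, Sult2a3, Sult2a4 and Sult2a8, and each of the 7 aligned with the other 6. Each of them also repeated itself, with a shift of 199 to 202 bases. No table of repeat names was used, so the repeat is not named.

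The first copy of this internal repeat near Sult3a1 is shown with its closest ungapped matches beside Sult2a4, Sult2a3 and Sult2a8, because bins on both chromosomes share it. Capitals mark bases that differ from the Sult3a1 copy, and sequences are from GRCm38, 5′ to 3′, on the strand that matches it. The Sult2a4 copy differed at 9 of 140 bases, the Sult2a3 copy at 14, and the Sult2a8 copies at 9 and 13. A table gives the change of 1 bin per region, which need not hold the copy printed here. The Sult2a4 copy lies outside the bins of both age tables, and the Sult2a8 copy at chr7:14404240-14404379 lies outside the bin of the female age table. The copies beside Sult2a2 and at the other Sult2a3 place matched only with gaps and are not shown.
Sult3a1 chr10:33835934-33836073 (plus strand): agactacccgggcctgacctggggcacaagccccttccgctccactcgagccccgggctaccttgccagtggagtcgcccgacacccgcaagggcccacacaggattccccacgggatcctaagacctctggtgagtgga
Sult2a4 chr7:13989986-13990125 (minus strand): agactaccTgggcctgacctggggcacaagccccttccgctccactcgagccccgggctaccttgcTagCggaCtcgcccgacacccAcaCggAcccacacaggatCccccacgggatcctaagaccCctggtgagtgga
Sult2a3 chr7:14057011-14057150 (minus strand): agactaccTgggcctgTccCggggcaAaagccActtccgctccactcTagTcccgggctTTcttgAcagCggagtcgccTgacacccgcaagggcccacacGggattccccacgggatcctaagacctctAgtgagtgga
Sult2a8 chr7:14370432-14370571 (plus strand): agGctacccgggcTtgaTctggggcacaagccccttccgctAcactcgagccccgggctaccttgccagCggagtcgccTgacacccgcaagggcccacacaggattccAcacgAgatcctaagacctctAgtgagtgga
Sult2a8 chr7:14404240-14404379 (plus strand): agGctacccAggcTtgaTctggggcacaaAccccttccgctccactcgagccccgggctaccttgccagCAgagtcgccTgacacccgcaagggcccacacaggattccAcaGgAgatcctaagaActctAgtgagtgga

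H3K9me3 near Sult3a1, the amine sulfotransferase, rose between 3 and 8 weeks in males at 3 of its 4 bins. The strongest was the bin that holds the repeat printed above, chr10:33835772-33836272, in intergenic sequence 21.4 kb upstream of the transcription start site. Its average level was 31.5 CPM per kb of bin, and the deposited average and change imply about 7.9 CPM at 3 weeks and 23.7 CPM at 8 weeks. The log2 change was 1.58 ± 0.27 (FDR 4.22e-06 in the authors' edgeR exact test). A bin 25.0 kb upstream rose by 1.13 ± 0.30 (FDR 0.0125). Of the Sult3a1 bins, 1 lay inside the gene body, in an intron 7.0 kb downstream of the start site at chr10:33870903-33871403, and it rose by 1.05 ± 0.31 (FDR 0.0333). Of these 3 male calls, that of the bin 21.4 kb upstream remained when the change of bins of like GC and level was subtracted, and the other two did not. The last Sult3a1 bin in males, 17.6 kb downstream, had a log2 change of -0.81 (FDR 0.354). In females, 2 bins were assigned to Sult3a1. The bin 21.4 kb upstream rose by 0.80 ± 0.24 (FDR 0.0477), with about 12.3 CPM at 3 weeks and 21.3 CPM at 8 weeks, and this call did not remain after the same subtraction. The bin 25.0 kb upstream had a change of 0.43 ± 0.32 (FDR 0.616).

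Sult3a2 lies beside it in the other orientation, and all of its bins in the age tables were downstream of it or between the 2 genes. In males 1 of its 10 bins was called, at chr10:33821393-33821705, 34.7 kb upstream, which rose by 1.71 ± 0.37 (FDR 9.95e-04) from a low level of about 2.22 CPM to 7.28 CPM. In that bin 49.8% of the 75-base windows, the length of a read, also occurred elsewhere in the genome, the most frequent of them in 3355 copies. None of the 11 female bins passed. The smallest p among them belonged to the bin 18.3 kb upstream, with a change of -1.10 ± 0.36 (FDR 0.0698). A bin 33.6 kb downstream of the start site had like values in both sexes without a call, 1.24 ± 0.41 in females (FDR 0.0745) and 1.02 ± 0.36 in males (FDR 0.0989). Over the chromosome 10 cluster, 4 of 14 male bins and 1 of 13 female bins were called, all higher at 8 weeks. Of all bins tested, 4.41% were called in males (2.42% higher and 1.99% lower) and 2.72% in females (1.49% higher and 1.23% lower). The median change over the cluster was 0.40 in males and -0.30 in females, against -0.05 and -0.03 over all bins.

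**Figure D1:**
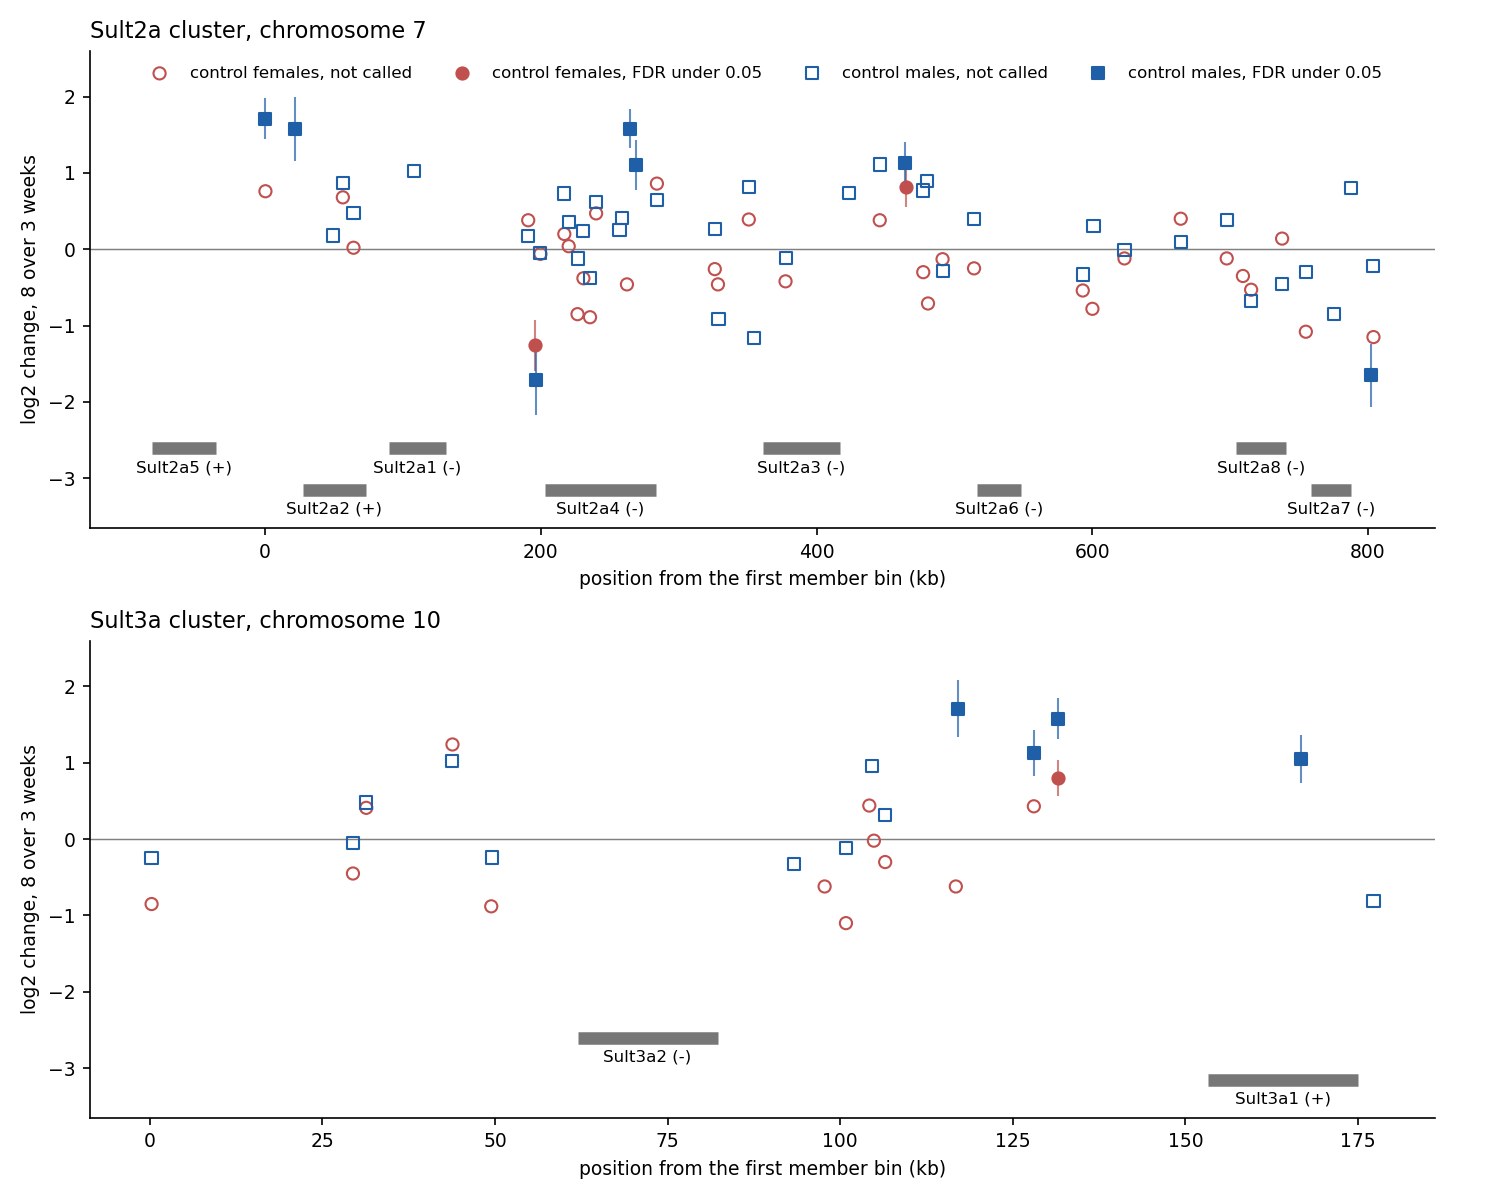
Log2 change in H3K9me3 between 3 and 8 weeks (vertical axis, positive is higher at 8 weeks) for each member bin along both clusters (horizontal axis, kb from the first member bin), in control females (red circles) and control males (blue squares). Filled symbols passed an FDR of 0.05 and carry the approximate SE, and grey bars are gene bodies with their strand. The called male bins rose except 1 upstream of Sult2a1 and 1 upstream of Sult2a7.

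On chromosome 7, 7 of the 44 male bins were called (4.41% of all male bins), 5 higher and 2 lower at 8 weeks. Sult2a2, a hydroxysteroid sulfotransferase gene like its neighbors, had 5 male bins with positive changes, of which 2 passed. The bin at chr7:13706247-13706747, 26.8 kb upstream, rose by 1.71 ± 0.27 (FDR 7.12e-07), from about 7.36 CPM to 24.1 CPM. The bin at chr7:13727958-13728215, 5.3 kb upstream, rose by 1.58 ± 0.42 (FDR 0.0111), and 60.9% of its 75-base windows occurred elsewhere. This region was in the male MO table at 8 weeks but not in that at 3 weeks, and a region that entered only through the age at which it is high had to differ. In females the bin at the first of these places had a change of 0.76 ± 0.25 (FDR 0.0704), and no Sult2a2 bin was called. The other 2 female Sult2a2 bins had changes of 0.68 and 0.02.

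Sult2a4 had 13 bins in males, the most of any member there, and 10 in females. Both of its called bins lay in its introns and rose in males, and the call of the weaker did not remain when the change of like bins was subtracted. At chr7:13971049-13971549, 18.0 kb into the gene, the change was 1.58 ± 0.26 (FDR 3.08e-06), from about 7.32 CPM to 21.9 CPM, and at chr7:13974861-13975361 it was 1.10 ± 0.33 (FDR 0.036). Only 2.34% and 2.58% of the windows of these bins occurred elsewhere in the genome, and 31.9% and 12.6% of their bases were soft-masked, less than in most member bins. The female table held another bin of the first region, at chr7:13968511-13969011, with a change of -0.46 (FDR 0.672), so the sexes cannot be compared there. The middle of both male bins is shown as sequence that is mostly unique, with CpG sites in capitals (3 and 5 in 150 bases).
Sult2a4 chr7:13971225-13971374 (plus strand): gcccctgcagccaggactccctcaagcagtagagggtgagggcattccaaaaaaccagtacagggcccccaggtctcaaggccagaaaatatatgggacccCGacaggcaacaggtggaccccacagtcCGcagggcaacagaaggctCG
Sult2a4 chr7:13975037-13975186 (plus strand): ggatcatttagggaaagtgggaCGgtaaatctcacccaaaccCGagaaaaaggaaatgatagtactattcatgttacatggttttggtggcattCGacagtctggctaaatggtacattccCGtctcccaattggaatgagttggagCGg

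Marked bins were annotated to the promoters of 3 members. Upstream of Sult2a4 by 0.7 kb, in the region that holds the repeat shared with Sult3a1, the log2 change was 0.86 ± 0.30 in females (FDR 0.107), and in males it was 0.64 ± 0.31 (FDR 0.3). The Sult2a7 bin was 0.3 kb from the start site and had 0.80 ± 0.42 in males (FDR 0.355), and the female age table held no bin there. The Sult2a8 bin had -0.46 ± 0.30 in males (FDR 0.489) and 0.14 in females (FDR 0.955). None of these passed. In the 3 female tables the Sult2a4 region began inside the RefSeq promoter window (GRCm38, 250 bases before to 50 after the start). Of that window 27 bases lay in the marked region and are in capitals.
Sult2a4 promoter chr7:13989539-13989838 (minus strand): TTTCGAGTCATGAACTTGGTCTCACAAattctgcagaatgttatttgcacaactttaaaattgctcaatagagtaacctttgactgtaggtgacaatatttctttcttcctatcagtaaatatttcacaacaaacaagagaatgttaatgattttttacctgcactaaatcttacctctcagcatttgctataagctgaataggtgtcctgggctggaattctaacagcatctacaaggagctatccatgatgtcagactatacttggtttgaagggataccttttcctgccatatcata
The windows of the other members with an entry (Sult2a3, Sult2a5, Sult2a6, Sult2a8, Sult3a1 and Sult3a2) overlapped no marked region in any of the 6 tables. A match to the STAT5 site TTCNNNGAA on either strand was found in 1 of the 8 windows, that of Sult3a1, and in 8.3% of all 32851 windows. The nuclear receptor core AGGTCA was in 1 window (Sult2a8; 16.3% of all windows), and the HNF6 core ATTGAT was in 2 (Sult2a8 and Sult3a1; 7.54% of all windows). These are descriptions of letters, and no binding was measured.

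Sult2a3 had a called bin in both sexes within the same marked region, and neither call remained when the change of bins of like GC and level was subtracted. In males the bin at chr7:14170193-14170693, 47.1 kb upstream, rose by 1.13 ± 0.27 (FDR 0.00321), and in females the next bin, chr7:14170723-14171223, rose by 0.81 ± 0.25 (FDR 0.0499). Another 2 male bins were just outside the threshold, 28.9 kb upstream with 1.11 ± 0.35 (FDR 0.0532) and 63.3 kb upstream with 0.89 (FDR 0.0624). The male bin 47.1 kb upstream also repeated itself, and its unit had a near copy 60.4 kb upstream of the same gene that differed at 14 of 150 bases. The copy had a change of 0.77 ± 0.31 in males (FDR 0.17) and -0.30 ± 0.30 in females (FDR 0.756).
Sult2a3 chr7:14170351-14170500 (plus strand): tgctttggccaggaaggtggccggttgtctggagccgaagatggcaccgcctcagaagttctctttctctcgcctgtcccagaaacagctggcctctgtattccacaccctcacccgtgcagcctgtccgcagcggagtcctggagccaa
Sult2a3 chr7:14183533-14183682 (plus strand): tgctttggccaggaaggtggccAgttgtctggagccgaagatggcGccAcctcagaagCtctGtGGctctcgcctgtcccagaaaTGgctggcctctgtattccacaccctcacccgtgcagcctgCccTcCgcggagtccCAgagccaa
Capitals mark the bases of the second that differ from the first.

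H3K9me3 fell at 2 places. Upstream of Sult2a1, the male bin at chr7:13902215-13902700 fell by 1.71 ± 0.46 on the log2 scale (FDR 0.0138), from about 5.48 CPM to 1.67 CPM. The neighboring female bin of the same region, chr7:13901728-13902228, fell by 1.26 ± 0.34 (FDR 0.0194), from about 10.7 CPM to 4.47 CPM. The female region was likewise missing from the female MO table at 8 weeks, while the male region was in both male MO tables. Neither call remained when the change of like bins was subtracted, but the changes left were -1.42 in males (FDR 0.078) and -1.19 in females (FDR 0.053). No 75-base window of either bin occurred elsewhere in the genome. The female bin had a near copy 62.1 kb downstream of the start site of Sult2a3, with a change of -1.16 in males (FDR 0.109) and no bin in the female age table. Both are shown, with capitals at the 14 of 150 bases that differ. The printed Sult2a1 copy lies in the female bin and outside the male bin, while the Sult2a3 copy had an age value in males only. The changes at the copies can therefore not be compared within a sex.
Sult2a1 chr7:13901816-13901965 (plus strand): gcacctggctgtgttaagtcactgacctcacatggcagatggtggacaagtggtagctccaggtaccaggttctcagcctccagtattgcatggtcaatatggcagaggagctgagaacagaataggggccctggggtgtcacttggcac
Sult2a3 chr7:14060459-14060608 (plus strand): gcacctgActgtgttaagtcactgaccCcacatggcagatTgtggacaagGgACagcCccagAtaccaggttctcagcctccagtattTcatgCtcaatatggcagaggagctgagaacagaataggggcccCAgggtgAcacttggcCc
At Sult2a7 the male bin 13.6 kb upstream, chr7:14507864-14508304, fell by 1.65 ± 0.41 (FDR 0.00557). This region was in the male MO table at 3 weeks and not in that at 8 weeks, so the same limit holds for its fall. The next male bin, 15.6 kb upstream, had a change of -0.22 (FDR 0.922), while in females the bin there had -1.15 ± 0.37 (FDR 0.069).

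Sult2a6 and Sult2a8 had no called bin in either sex. Sult2a8 codes for an enzyme linked to bile acid sulfation. The bin with the smallest p of Sult2a8 had a change of -1.08 ± 0.41 in females (FDR 0.157) and another had -0.68 ± 0.35 in males (FDR 0.328). For Sult2a6 these values were -0.78 ± 0.40 (FDR 0.371) and 0.40 ± 0.31 (FDR 0.605). All 5 female Sult2a6 bins had negative changes, between -0.78 and -0.12, and the 5 male bins lay between -0.33 and 0.40. Over the chromosome 7 cluster the median change was 0.28 in 44 male bins and -0.19 in 34 female bins, of which 28 and 13 were positive. Females had 2 called bins of 34, 1 higher and 1 lower, beside 1.49% and 1.23% of all female bins.

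The average levels of the members overlapped. In the male age table the medians over a gene's bins ranged from 12.6 CPM per kb for Sult3a2 to 17.2 CPM per kb for Sult2a3. The bins of every gene spread more widely than that, from 7.25 to 27.4 CPM per kb for Sult2a3 alone, and the order of the genes is not separated from this spread. The medians were 15.5 CPM per kb on chromosome 7 and 12.8 on chromosome 10, above the 10.1 of all bins of that table. Change went with level. Of the 46 male member bins above the table's median level 30 had a positive change, with 9 called higher and 1 lower, and of the 12 at or below it 6 were positive, with none called higher and 1 lower. The whole male table had the same form, with 59.3% of bins positive above the median and 35.9% at or below it. When the median change of bins of the same GC and level decile was subtracted (an alternative chosen after seeing the data, with approximate p-values adjusted over the table), 6 of the 11 male calls remained. These, which include both male bins whose region was in the MO table of 1 age, were the bins 26.8 kb and 5.3 kb upstream of Sult2a2, the stronger Sult2a4 intron bin, and those 34.7 kb upstream of Sult3a2, 21.4 kb upstream of Sult3a1 and 13.6 kb upstream of Sult2a7, with remaining log2 changes of 1.36, 1.77, 1.14, 1.92, 1.14 and -1.55. The 5 others did not pass. Of these the Sult2a1 bin was left with -1.42 (FDR 0.078), the Sult2a3 bin with 0.73 (FDR 0.128) and the weaker Sult2a4 intron bin with 0.35 (FDR 0.65). The Sult3a1 bins 25.0 kb upstream and in the intron were left with 0.69 (FDR 0.224) and 0.54 (FDR 0.394). None of the 3 female calls remained. In females the Sult2a1 bin was left with -1.19 (FDR 0.053), the Sult3a1 bin with 0.50 (FDR 0.343) and the Sult2a3 bin with 0.43 (FDR 0.449). The bin 33.6 kb downstream of the Sult3a2 start site became the only female call (1.57, FDR 0.0243).

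**Figure D2:**
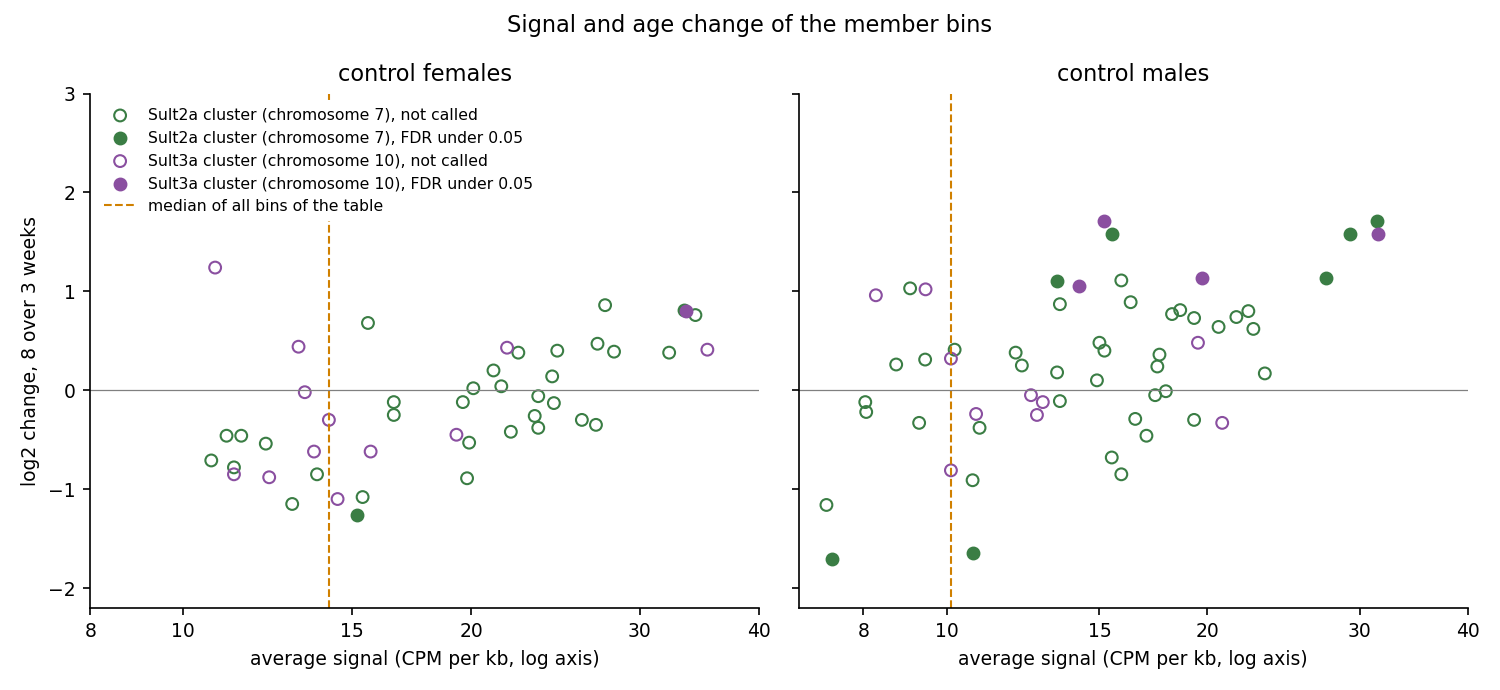
Average level of each member bin over both ages (horizontal axis, CPM per kb, log axis) and its log2 change between 3 and 8 weeks (vertical axis), in control females (left) and control males (right). Filled points passed an FDR of 0.05 and the dashed line is the median level of all bins of the table. In males, 9 of the 11 called bins lie to the right of the line and above 0.

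Bins of both sexes shared at least 50% of their length at 34 places, where the changes can be set side by side. The changes had the same sign at 28 of them (82.4%, against 64.7% of the 54633 places of the whole tables). The change was higher in males at 27 places, 19 of 25 on chromosome 7 and 8 of 9 on chromosome 10, against 55.8% of all places. The median difference, males minus females, was 0.32 on chromosome 7, 0.62 on chromosome 10 and 0.08 over all places. No library is shared between the sexes, but their tables were made separately, and the difference was not tested because the files hold no value per library. An SE in both sexes, which needs a p under 0.5 in each, was to be had at 18 places. At 3 of these (16.7%) the changes lay more than 2 SE of the difference apart, as they did at 10.4% of the 22801 such places of the whole tables, which is a description and no test. They were the bin upstream of Sult2a2 (0.95 ± 0.36), the bin 21.4 kb upstream of Sult3a1 (0.78 ± 0.36) and the bin 60.4 kb upstream of Sult2a3 (1.08 ± 0.43), where the change was higher in males. At 7 places the change was higher in females, among them the Sult2a4 promoter bin, by 0.22 ± 0.43. Each of the 3 bins called in females lay in a region that also had a male bin called in the same direction. Of all 3285 bins called in females 18.4% did, and of the 2040 among them with a male region at the same place 29.7% did. These shares include X chromosome bins, and the paper placed a much larger fraction of female than of male age changes there. All members are autosomal, so the shares are not a like comparison.

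**Figure D3:**
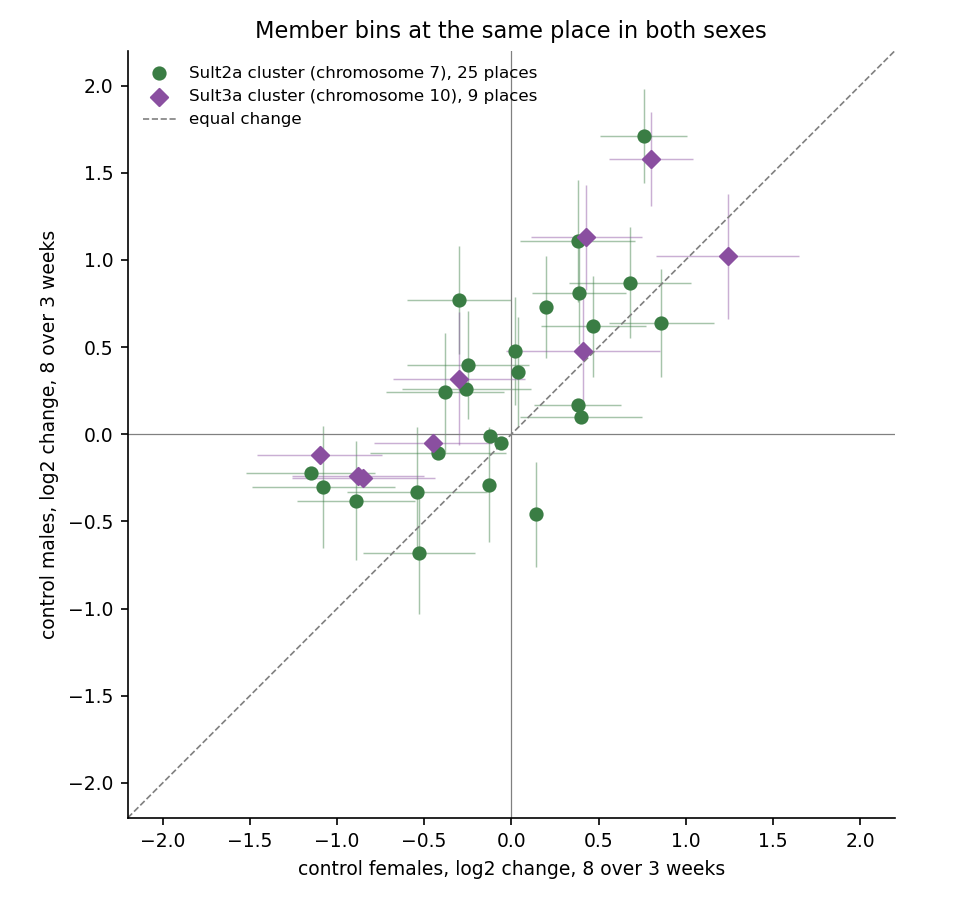
Log2 change between 3 and 8 weeks in control females (horizontal axis) and control males (vertical axis) at the 34 places with a member bin in both tables, for the Sult2a cluster (green circles) and the Sult3a cluster (purple diamonds). Bars are approximate SE where one could be computed, and the dashed line marks equal change. Most points (27) lie above the line.

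The retained bins of the 7 regions with the shared repeat had positive changes in males at all 7 places and in females at 6. Of all bins above the median level, where these lie, 59.3% were positive in males and 57.4% in females. With the change of like bins subtracted, the values in Sult2a2 (-0.04) and at the Sult2a8 place at chr7:14370237-14370597 (-0.14) were negative in males. In females those in Sult2a2 (-0.38) and at the other Sult2a8 place (-0.42) were. The changes differed in size from place to place. In males the changes were 1.58 upstream of Sult3a1, 1.11 and 0.81 at the Sult2a3 places, 0.64 at the Sult2a4 promoter, 0.48 in Sult2a2, and 0.38 and 0.10 at the Sult2a8 places. Only the first passed the FDR of 0.05 (the others had FDR values between 0.0532 and 1.00). In females the changes ranged from -0.12 to 0.86, with a median of 0.39. Between 7.21% and 58.8% of the 75-base windows of the female bins at these places occurred elsewhere in the genome. For the male bins it was between 21.6% and 56.2%. A read from such a window alone has no unique place, and how the read pairs were placed was not examined. The part of such windows in the changes was not tested. The bin 26.8 kb upstream of Sult2a2 carried another internal repeat, in a set of 5 places. Within this set the Sult2a2 and Sult3a2 places were each near copies of 3 others, and not of each other. No internal repeat was found at the Sult3a2 place. Male changes at the other places of the set were 0.17 upstream of Sult2a1 (FDR 0.904), 0.62 ± 0.29 in an intron of Sult2a4 (FDR 0.278) and 1.71 ± 0.37 at the called bin of Sult3a2 (FDR 9.95e-04). The Sult2a3 place had no bin in the age tables. The Sult2a4 copy, the closest without gaps, differed at 19 of 139 bases, marked by capitals.
Sult2a2 chr7:13706395-13706533 (plus strand): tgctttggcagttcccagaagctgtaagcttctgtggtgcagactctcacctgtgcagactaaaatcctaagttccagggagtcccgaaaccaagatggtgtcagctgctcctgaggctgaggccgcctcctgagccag
Sult2a4 chr7:13946429-13946567 (minus strand): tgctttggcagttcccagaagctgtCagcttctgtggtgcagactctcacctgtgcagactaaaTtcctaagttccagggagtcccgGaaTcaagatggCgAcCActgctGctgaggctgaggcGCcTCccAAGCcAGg

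No member bin was called with maternal obesity. The study's threshold for MO was an unadjusted p under 0.001 in the edgeR exact test, and no member bin passed it or an FDR of 0.05 in any of the 4 tables. The p threshold was passed by 0.211% of all bins in MF and by 0.278% in MM at 3 weeks, and by 0.162% in MF and 0.114% in MM at 8 weeks, while the share at an FDR of 0.05 was 0 in each. With a p under 0.05 there were 3 of 54 member bins in MF (7.72% of all bins) and 3 of 60 in MM (8.83%) at 3 weeks. At 8 weeks there were 1 of 44 in MF (7%) and 3 of 53 in MM (6.5%). The smallest p on chromosome 7 was 0.00679, upstream of Sult2a4 in females at 3 weeks (0.91 ± 0.34). On chromosome 10 it was 0.0122, at the bin 34.7 kb upstream of Sult3a2 in males at 8 weeks (-0.89 ± 0.36, FDR 1.00). That bin had risen with age in control males. The control libraries are the same in both comparisons, so the values are only set side by side.

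The medians in the MO comparisons were small. At 3 weeks they were -0.07 on chromosome 7 and 0.15 on chromosome 10 in MF, and -0.01 and 0.12 in MM. At 8 weeks they were 0.06 and 0.11 in MF, and -0.02 and -0.19 in MM, where 3 of 13 chromosome 10 bins were positive. The bin 21.4 kb upstream of Sult3a1 differed between MO and control by -0.34 ± 0.30 (p = 0.264) and 0.11 (p = 0.656) in females at 3 and 8 weeks, and by 0.05 (p = 0.919) and -0.37 ± 0.25 (p = 0.141) in males, all p-values from the edgeR exact test. Sult2a5 had a bin only in the 2 tables of MO at 3 weeks, with -0.17 in females (p = 0.677) and -0.09 in males (p = 0.93) in the same exact test.

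**Figure D4:**
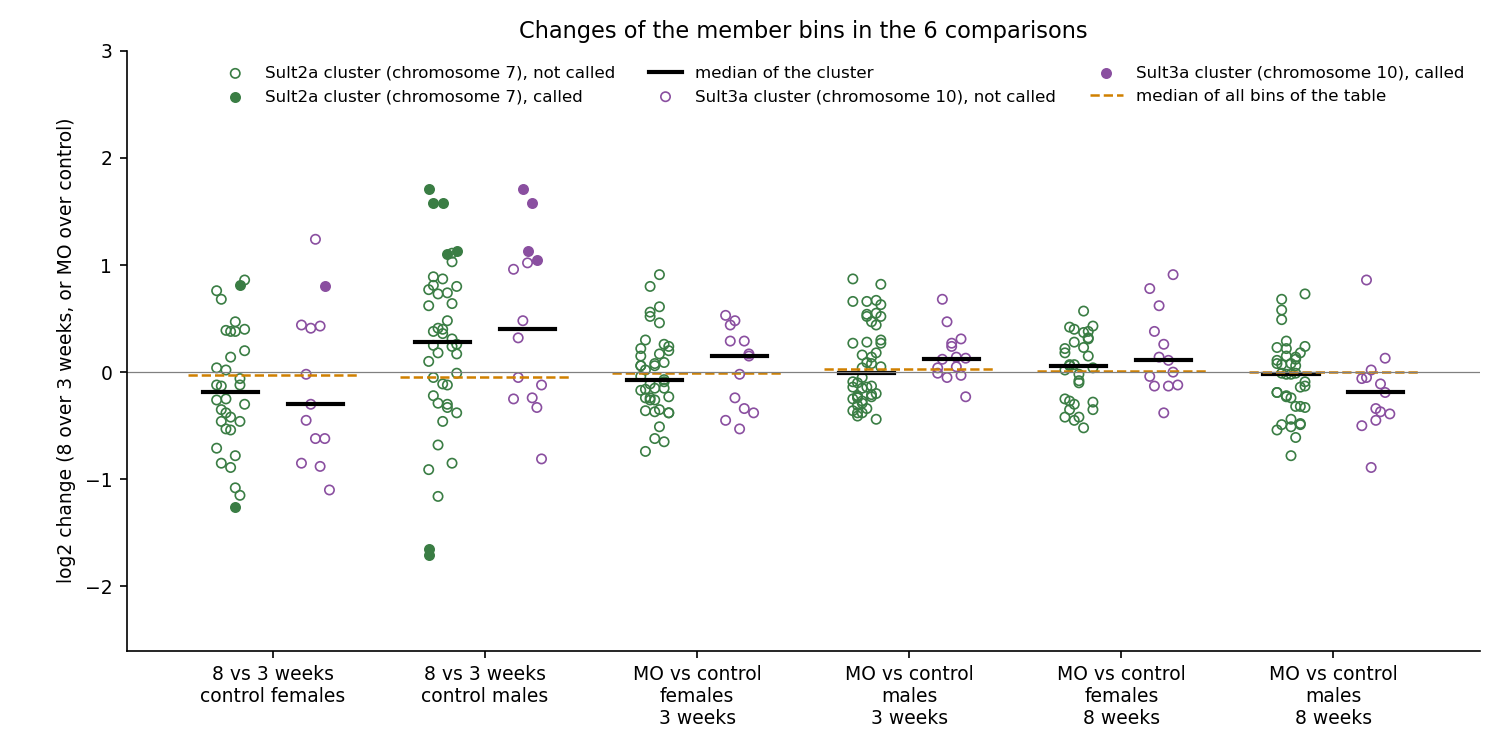
Log2 change of every member bin (vertical axis) in each of the 6 comparisons (horizontal axis), for the Sult2a cluster (green, left) and the Sult3a cluster (purple, right). Filled points were called (FDR under 0.05 for age, unadjusted p under 0.001 for MO), black bars are cluster medians and orange dashes are the median of all bins. Called bins appear only with age, and the cluster medians of the MO comparisons lie between -0.19 and 0.15.

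Other genes of sulfation were counted for comparison, from a list of 24 for synthesis, transport and removal of the sulfonate donor and for other sulfotransferases. In males 8 of their 130 bins were called higher and 3 lower at 8 weeks, beside 2.42% and 1.99% of all male bins. In females 2 of 107 were called higher and 1 lower, or 2.8%, near the 2.72% of all female bins. In males bins beside Sult1c1 and Sult1c2, cytosolic sulfotransferase genes on chromosome 17, made up 5 of the 11, with 4 higher (0.96 to 1.58) and 1 lower (-1.78 ± 0.38, FDR 6.71e-04). A bin 24.3 kb from Sult1c2 also rose in females (1.77 ± 0.40, FDR 0.00208). Beside Slc13a1, a sulfate transporter gene, 2 bins rose in males (1.47 ± 0.41 and 1.85 ± 0.41).

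Genes other than the members that are known to be higher in adult female liver had 12 bins called higher and 3 lower of 108 in males (13.9%, against 4.41% of all bins), and 1 higher and 6 lower of 90 in females (7.78%, against 2.72%). An intronic bin of Cux2, a female-biased repressor gene, rose by 1.84 ± 0.28 in males (FDR 2.96e-07), and the drug-metabolizing enzyme genes Cyp2b13 (4 bins, 1.01 to 1.77), Cyp3a16 (1.43 ± 0.31) and Cyp3a41a (1.17 ± 0.24 and 1.57 ± 0.27) also had bins that rose. Another Cyp2b13 bin fell (-1.37 ± 0.40). In females the bins called lower were beside Cyp2a4, Cyp3a41a, Cyp3a41b and Cyp17a1 (-1.69 to -1.41). Male-biased genes had 6 bins called higher and 3 lower of 80 in males and none of 59 in females. All 3 of these lower bins were beside Cyp2d9. The 12 listed regulators of such genes had 1 bin higher (Onecut1, 1.27 ± 0.33) and 1 lower (Rora, -1.40 ± 0.40) of 86 in males. In females 5 of 73 were called higher and 1 lower, the latter beside Esr1, an estrogen receptor gene (-2.10 ± 0.43). The hepatocyte genes Alb, Apoa1, Ttr, Tf, Cps1 and Hnf4a had 20 bins in females, none called, and 26 in males, with 1 called beside Cps1 (1.01 ± 0.27). H3K9me3 does not report which cells were present, so the tissue was not checked by markers. With MO, 1 bin of these lists was called, at the Cyp2d9 promoter in males at 3 weeks (1.35 ± 0.36, p = 2.22e-04 in the exact test, FDR 0.509).

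Among the 5816 other genes with at least 5 bins in each table, those whose 6 median changes were closest to the Sult2a cluster were 4930563F08Rik, Slc1a3 and Zc3h13 (Euclidean distances of 0.0804, 0.106 and 0.138, against a median of 0.575). Closest to the Sult3a cluster were Gm4251, Niban2 and Rtp1 (0.129, 0.203 and 0.236, against 0.728). The likeness is over 6 comparisons that share control libraries.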

How the data were processed

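H3K9me3 ChIP-seq of liver was analyzed from 6 deposited comparison tables, covering 32 ChIP libraries. The authors aligned paired-end reads to mm10 (GRCm38), called broad regions with MACS2, kept regions found in replicates, merged them per sex, split them into bins of 500 bases, counted reads and tested bins with the edgeR exact test. The deposited log2 columns hold the average log2 CPM and the log2 fold change, and the deposited p-value and FDR columns hold that test. Each table holds 1 bin per region, and how it was chosen is not given in the sources used here. These columns of the authors' own comparisons are the only values in the files, so no test was refitted. The number of other columns per sample was 0.

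Age changes were turned to 8 over 3 weeks. Bins counted as called at an FDR under 0.05 (age) or, in the MO tables, at a raw p under 0.001. The approximate SE is the change divided by the normal quantile of its p (none at p of 0.5 or more). The labels do not say whether libraries of a group came from separate litters, so the p-values measure the spread between these libraries. GC content, soft-masked bases and 75-base windows were taken from GRCm38.p6 (RefSeq), promoters from RefSeq for that build (7 of 10 members had an entry), gene bodies from GENCODE, and copies were found with blastn 2.17.0. Scripts were tested on simulated data. Described in full are all called bins and, per gene, the bin of smallest p with age. The members, lists and settings were chosen with earlier results of these data known. The closing section gives the alternatives. Values of some list genes are not reported here.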

Additional observations from a re-analysis of the deposited data

How the results depend on the processing

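No paired analysis was possible because the files hold no values per library, and for the same reason no replicate could be left out. Of 36 alternatives for the age call counts, 15 moved the count by over 1.5 times. The reported MO counts were all 0, so that 63 of their 64 alternatives staying at 0 says little. At an FDR under 0.01 the age calls were 0 (Sult2a) and 0 (Sult3a) in females and 4 and 2 in males, and at an FDR under 0.10 the females had 4 and 3. Asking for a change of at least 1 on the log2 scale as well left 1 and 0 in females. Among bins annotated to a promoter, exon or intron of any gene there were 0 and 0 calls in females and 2 and 1 in males. Subtracting the change of bins of like GC and signal, chosen after seeing the data, left 0 Sult2a calls in females and 4 and 2 in males. The 1 female Sult3a call was then another bin. For MO, an unadjusted p under 0.01 gave 1 call, for Sult2a in females at 3 weeks. Subtracting the change of like bins took the Sult3a median from 0.40 to 0.22 in males and the Sult2a median from -0.19 to -0.30 in females. Among bins so annotated the female Sult2a median was -0.35. The Sult3a medians of 0.21 in females, of opposite sign to the reported one, and 1.00 in males rest on 2 bins each, of which both in females and 1 in males are exons of Gm10327 and not part of a Sult3a gene. An overlap of any size gave 40 places with bins in both sexes and one of at least 80% gave 26, with the change higher in males at 32 and 19. Approximate errors of male member bins ran from 0.26 at 29.2 CPM per kb to 0.46 at 7.36 CPM per kb.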
